A study of Mus musculus with 3 samples.

Results

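Astrocyte nuclei were defined by raw counts of 4 genes in single nuclei of differentiated mouse neurosphere cultures. A nucleus was taken as an astrocyte nucleus when it held at least 3 unique molecular identifiers (UMIs, counted RNA molecules) of Slc7a11, Slc6a11 and Atp13a4 together and at least 5 UMIs of Gpc5. Of 12549 nuclei, 913 passed this rule, and 899 of them came from the control library.

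The neurospheres were grown from the subventricular zone of newborn pups and differentiated for 15 days, and each library was a pool of about 15 cultures. One library was labelled control, 1 was CBP-ablated (CBPf/f) and 1 was p300-ablated (p300f/f). By the study's methods, the ablated cultures carried loxP-flanked alleles of Crebbp or Ep300 and received a lentivirus with Cre recombinase and mCherry, floxed cultures that received a lentivirus with red fluorescent protein served as controls, and nuclei were sorted for these fluorescent proteins. The treatment label reads tamoxifen for each of the 3 libraries, and which floxed line gave the sequenced control cultures was not given in the sources used here. Cultures of this kind hold progenitors and their progeny without the circuits of a brain.

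The control library held 4884 nuclei and 16312170 UMIs, the CBP-ablated library 3017 nuclei and 12748336 UMIs, and the p300-ablated library 4648 nuclei and 18876682 UMIs. With 1 library per condition no difference between conditions has a replicate check, so no p-value is given, and intervals (95%, exact) cover counting error only. Between them the libraries shared 11 barcodes, and 0 of these passed the rule. A doublet caller, set to mark 0.8% of nuclei per 1000 nuclei, marked 37 of the 899 control nuclei that passed, 1 of the 4 CBP-ablated and 3 of the 10 p300-ablated nuclei, and these were kept unless stated. In the whole libraries Crebbp had 335 CPM (UMIs per 1e+06 UMIs) in control, 369.5 CPM in CBP-ablated and 365 CPM in p300-ablated nuclei. Ep300 had 114 CPM, 136 CPM and 115 CPM in the same order. Neither gene was thus lower in the library ablated for it. The study describes a loss of mature Ep300 mRNA after recombination, and a truncated CBP, but the counts join exonic and intronic reads over the whole gene in nuclei, where unspliced RNA is counted too, and do not single out the deleted exon. The deletion was therefore not seen in these counts, and the ablated libraries are named by their labels. The study itself reports that CBP and p300 had been removed in its differentiating cultures. The figure it cites for this describes CBP staining, absent after Cre virus. That evidence is of protein and not from these libraries.

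Astrocytes clear glutamate and potassium from around synapses, supply neurons with metabolites and antioxidants, and are coupled to each other through gap junctions. They arise from radial glia, often by way of dividing glial progenitors, and many carry the filament protein GFAP, in culture above all. CBP (Crebbp) and p300 (Ep300) are lysine acetyltransferases that act as coactivators at enhancers and promoters.

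Of the 4 genes of the rule, Slc7a11 encodes the cystine and glutamate exchanger xCT, Slc6a11 the GABA transporter GAT-3, Atp13a4 a cation-transporting ATPase and Gpc5 a cell-surface heparan sulfate proteoglycan. In the GRCm38 annotation Slc7a11 (ENSMUSG00000027737) lies on chromosome 3 from 49892526 to 50443614, Slc6a11 (ENSMUSG00000030307) on chromosome 6 from 114131241 to 114249952, Atp13a4 (ENSMUSG00000038094) on chromosome 16 from 29395853 to 29544864 and Gpc5 (ENSMUSG00000022112) on chromosome 14 from 115092215 to 116525179. Promoter windows (RefSeq, build GRCm38.p6, 250 bases before to 50 after the start) are shown for the 3 genes of the rule whose window held the core letters TTGGC of the NFI site, since NFI proteins are known regulators of astrocyte genes. Capitals mark those letters on either strand.
Slc7a11, chr3:50443564-50443863, minus strand: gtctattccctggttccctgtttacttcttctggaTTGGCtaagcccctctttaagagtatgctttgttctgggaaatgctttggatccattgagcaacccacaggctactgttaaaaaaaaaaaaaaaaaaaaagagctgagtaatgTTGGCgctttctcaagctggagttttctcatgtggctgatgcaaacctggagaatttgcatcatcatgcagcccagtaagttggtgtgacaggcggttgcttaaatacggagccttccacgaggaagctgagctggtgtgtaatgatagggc
Gpc5, chr14:115091965-115092264, plus strand: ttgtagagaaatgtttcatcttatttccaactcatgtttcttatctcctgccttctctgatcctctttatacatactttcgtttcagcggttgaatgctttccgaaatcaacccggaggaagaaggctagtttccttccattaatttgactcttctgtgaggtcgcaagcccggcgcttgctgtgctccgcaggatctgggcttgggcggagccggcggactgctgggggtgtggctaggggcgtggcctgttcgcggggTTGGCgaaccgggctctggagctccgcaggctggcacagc
Atp13a4, chr16:29541434-29541733, minus strand: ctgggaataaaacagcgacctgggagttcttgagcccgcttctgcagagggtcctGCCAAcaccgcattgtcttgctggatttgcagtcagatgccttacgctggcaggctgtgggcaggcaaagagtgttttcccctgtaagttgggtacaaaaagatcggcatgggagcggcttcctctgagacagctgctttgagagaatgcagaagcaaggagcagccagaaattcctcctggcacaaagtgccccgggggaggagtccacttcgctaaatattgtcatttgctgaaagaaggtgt
The window of Slc6a11 did not hold these letters. Of the 25 genes with the largest ratios in the control library, described later, 20 had a window in the table, and Proc, St8sia5, Abcd2 and Sparcl1 were among those that had none. The NFI core stood in 13 of the 20 windows (65%), against 47.0% of 27025 promoters of the same length. The full palindromic NFI site, which contains the core, stood in 0 of the 20 and in 0.0407% of all promoters. The STAT site TTCNNNGAA stood in 1 window, that of Slc7a11 (5% against 8.47%), and the SOX site ACAATG in 2, those of Atp13a4 and Pdzph1 (10% against 12.8%). The cyclic AMP response element TGACGTCA stood in 1 window, that of Hs3st2 (5% against 1.88%), and its shorter form TGACG, which is part of it, in that window alone (5% against 21.0%). Both strands were searched, and these are matches of letters.

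The share of nuclei that passed was 18.4% in control (17.3 to 19.5), 0.133% in CBP-ablated (0.0361 to 0.339) and 0.215% in p300-ablated nuclei (0.103 to 0.395). Both ablated libraries are set against the same control library. The parts of the rule differed in how they fared. At least 3 transporter UMIs were held by 983 control nuclei (20.1%), 12 CBP-ablated nuclei (0.398%) and 23 p300-ablated nuclei (0.495%). At least 5 UMIs of Gpc5 were held by 41.1% of control nuclei (39.7 to 42.5), 5.50% of CBP-ablated nuclei (4.72 to 6.38) and 24.0% of p300-ablated nuclei (22.8 to 25.3). Thus Gpc5 was still common in the p300-ablated library, where the transporters were rare. Of the nuclei with that much Gpc5, 44.8% in control, 2.41% in CBP-ablated and 0.895% in p300-ablated also met the transporter condition. These counts used the genes of the rule and are descriptions.

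**Figure D1:**
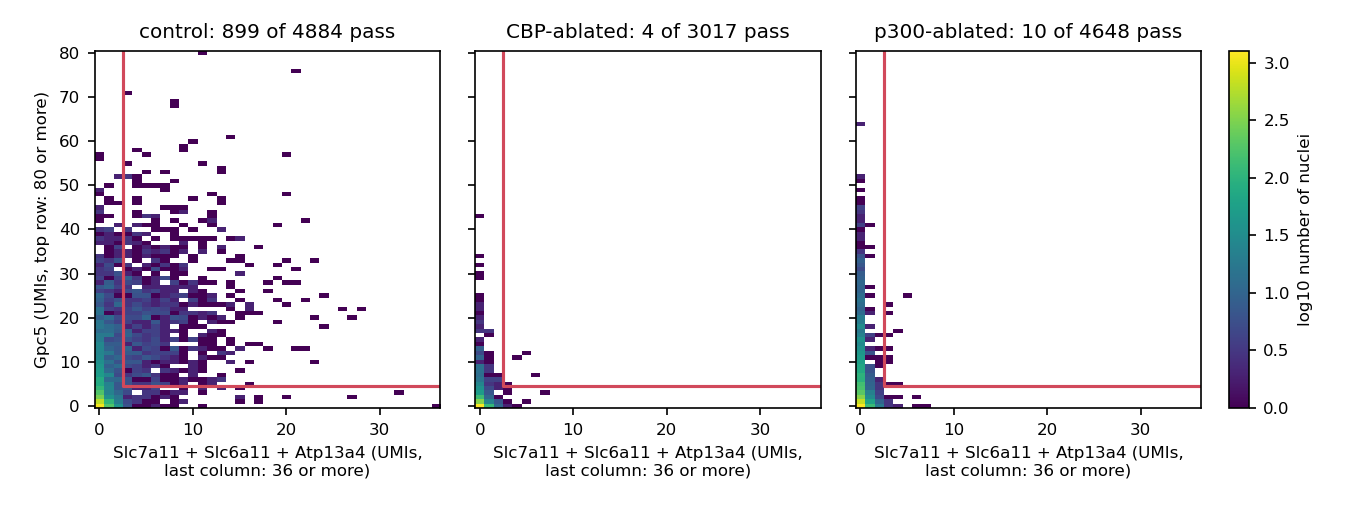
Number of nuclei by UMIs of Slc7a11, Slc6a11 and Atp13a4 together and by UMIs of Gpc5, with 1 panel per library and colour for the number of nuclei; the lines mark the thresholds of 3 and 5 UMIs. Of the control nuclei 899 lie inside both thresholds, whereas 1033 p300-ablated nuclei lie above the Gpc5 threshold at a transporter sum of 0.

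Nuclei with 5 or more UMIs of Gpc5 and no transporter UMI numbered 645 in control, 134 in CBP-ablated and 1033 in p300-ablated. In the p300-ablated library 523 of the 1033 (50.6%) passed a gate for oligodendrocyte precursors (Pdgfra, Cspg4 and Megf11, at least 5 UMIs together), against 178 of 645 in control (27.6%). This gate itself held more of the p300-ablated library, 1711 of 4648 nuclei against 856 of 4884 in control, and 30.6% and 20.8% of its nuclei were of this kind. In the CBP-ablated library 45 of 134 (33.6%) passed a gate for oligodendrocytes, with Mog, Mag and Mobp among its genes, against 18 of 645 in control (2.79%). That gate held 716 of 3017 CBP-ablated nuclei against 261 of 4884 control nuclei, and 6.28% and 6.90% of its nuclei were of this kind. Gpc5 was therefore not confined to astrocyte nuclei in these cultures.

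Free RNA gives some UMIs in nuclei that do not use a gene. A microglia gate held 94 control nuclei (median depth 1557 UMIs). Of these nuclei 34.0% held a UMI of Gpc5, 9.57% of Slc7a11, 4.26% of Slc6a11 and 0 of the 94 of Atp13a4. The most any of these nuclei held was 2 UMIs of Gpc5 and 1 UMI of Slc7a11 or Slc6a11. Whether these UMIs were free RNA or the nuclei's own RNA was not tested. Among the 899 control nuclei that passed (median depth 3132 UMIs), Slc7a11 was found in 88.1%, Slc6a11 in 71.3% and Atp13a4 in 32.5%, and Gpc5 ranged from 5 through a median of 20 to 106 UMIs. Depth was close to that of the 3985 other control nuclei, whose median was 3242 UMIs.

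The label was checked with 12 astrocyte markers that the rule did not use, among them Grm3, Trpm3, Sparcl1, Slc1a2, Slc1a3, Apoe, Rorb, Ntm, Aldh1l1, Gja1 and S100b. Their summed level per nucleus had a median of 18948 CPM in the control nuclei that passed (quartiles 15035 and 22761 CPM) and 3489.7 CPM in the other control nuclei. It was 8294 CPM in 192 nuclei that passed only a glial progenitor gate (Gfap and Aqp4, at least 3 UMIs), 3484 CPM in 502 nuclei that passed only a radial glia gate (Lrp2, Pde1a and Shroom3, at least 5 UMIs) and 1321 CPM in the microglia gate. Ntm, which encodes the adhesion molecule neurotrimin, supplied 62.6% of the marker UMIs. Without it the medians were 6869 CPM in nuclei that passed and 1285 CPM in the others. Against the other control nuclei 11 of the 12 markers were called higher (log2 ratio past 1) and S100b was not. Of all genes with enough UMIs, 5.76% were called higher there. Astrocyte genes outside this list did not all share that direction: as described later, Kcnj10, Aqp4 and Gfap were not called higher. Against the glial progenitor gate only 4 of 11 markers were called higher, where 4.92% of genes with enough UMIs were.

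The nuclei just outside the threshold resembled those just inside it. The 151 control nuclei with a transporter sum of 3 had a median marker level of 18739 CPM, and the 183 with a sum of 2 had 17844 CPM. At a sum of 1 the median was 13973 CPM (279 nuclei), and at a sum of 0 it was 4045 CPM (645 nuclei). At the other threshold the 29 nuclei with 5 UMIs of Gpc5 and the 20 with 4 UMIs had medians of 19222 CPM and 17034 CPM. The other control nuclei therefore still held nuclei with a high marker level. In the ablated libraries the nuclei with a sum of 2 had medians of 8861 CPM (7 CBP-ablated nuclei) and 5346 CPM (10 p300-ablated nuclei).

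**Figure D2:**
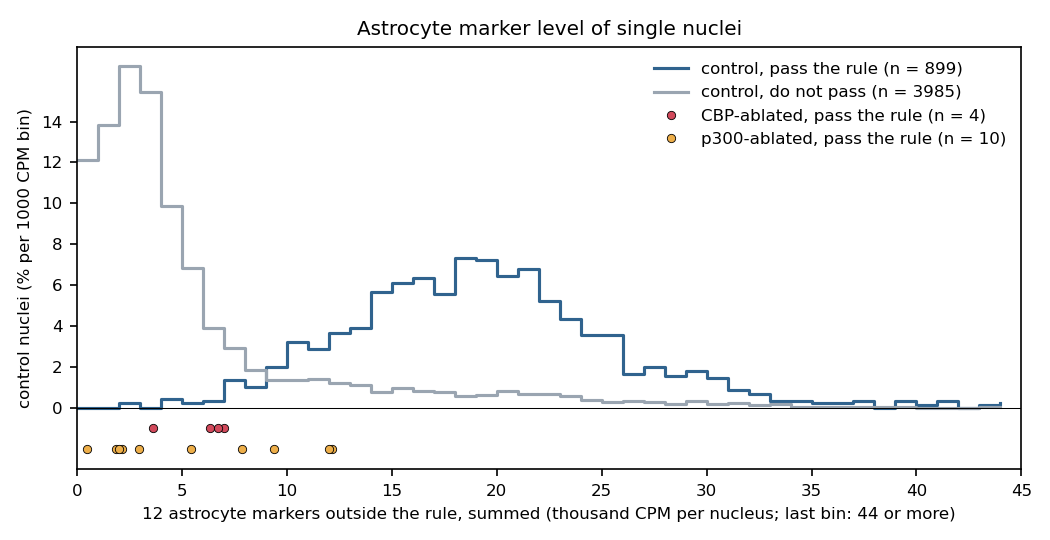
Summed level of the 12 astrocyte markers outside the rule in single nuclei (CPM, in bins of 1000 CPM), as the share of nuclei of each control class, with the 14 ablated nuclei that passed as single points. The control nuclei that passed centre on a median of 18948 CPM, and the 14 ablated nuclei lie between 479.6 and 12155 CPM.

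Against the 3985 other control nuclei, 10263 genes had at least 100 UMIs in both sums together, and a gene is called higher or lower here when its log2 ratio of CPM passes 1. Of these genes 591 (5.76%) were higher and 1334 (13%) lower in astrocyte nuclei, with a median log2 ratio of 0.02 over all of them. Of the 12 markers outside the rule, 11 were higher and 0 lower, at a median log2 ratio of 1.72. Sparcl1, a secreted matrix protein, had 423 CPM against 87.7 CPM, a log2 ratio of 2.27 (2.15 to 2.39). Grm3, a metabotropic glutamate receptor, had 269 CPM against 56.5 CPM, a log2 ratio of 2.25 (2.10 to 2.40). Trpm3, a cation channel, had 879 CPM against 191 CPM, a log2 ratio of 2.20 (2.13 to 2.28). These 3 genes were found in 46.9%, 45.3% and 62.8% of astrocyte nuclei. S100b, a calcium-binding protein used as an astrocyte stain, had 15.4 CPM against 22.2 CPM, a log2 ratio of -0.52 (-1.0 to -0.07).

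Outside the rule and the markers, the largest ratios belonged to genes of several roles. Pdk4, a kinase that restrains pyruvate dehydrogenase, had a log2 ratio of 2.93 (2.34 to 3.53) on 68 UMIs against 40 UMIs. Hif3a, a hypoxia-inducible factor subunit, had 2.87 (2.56 to 3.19), and Slc25a34, a mitochondrial carrier, 2.77 (2.42 to 3.13). Slc27a1, a fatty acid transport protein, was found in 75.4% of the astrocyte nuclei and 19.9% of the others, at 496 CPM against 93.5 CPM. Among the genes with enzymatic roles, Cbs, the first enzyme of transsulfuration, had a log2 ratio of 2.36 (1.98 to 2.75), and Hs3st2, which sulfates heparan sulfate, 2.54 (1.94 to 3.14). Abcd2, a peroxisomal fatty acid transporter, had 2.30 (1.98 to 2.62), and Npas2, a partner of BMAL1 in the circadian clock, 2.30 (2.13 to 2.46). Proc, the precursor of the anticoagulant protein C, stood at 49.7 CPM against 8.70 CPM, and Cd27, a tumour necrosis factor receptor family member, at 56.1 CPM against 10.9 CPM. The 25 largest ratios also included Tmem229a, Svep1, Cldn10, St8sia5, Aifm3, Pdzph1 and AY512915, between 2.20 and 2.66. At the other end Zfp536, a zinc finger protein, had 8.73 CPM against 273 CPM, and Fli1, a factor of blood and vessel lineages, had 1 UMI against 256 UMIs. These genes were named by the size of their ratio, and no theme was tested.

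Of 11 uptake and ion transport genes 8 were higher and 0 lower, at a median log2 ratio of 1.41. The astroglial glutamate transporters Slc1a2 (GLT-1) and Slc1a3 (GLAST) had log2 ratios of 1.62 (1.54 to 1.71) and 1.41 (1.36 to 1.47), and were found in 75.3% and 92.8% of astrocyte nuclei. The bicarbonate cotransporter Slc4a4 had a log2 ratio of 1.87 (1.84 to 1.91) and the glycine transporter Slc6a9 1.74 (1.47 to 2.01). Slc38a3, which carries glutamine, had 0.38 (0.15 to 0.60).

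Of 15 metabolism genes 9 were higher and 0 lower. Besides Cbs they included Glul, the glutamine synthetase, at 1.35 (1.21 to 1.49), Aldh1l1, a folate enzyme used as an astrocyte marker, at 1.66 (1.45 to 1.88), Dio2, which activates thyroid hormone, at 2.18 (1.85 to 2.52), and Pla2g7, a lipase, at 1.87 (1.77 to 1.96). Of 15 receptors 8 were higher and 0 lower. Among them were Fgfr3, a growth factor receptor, at 1.63 (1.33 to 1.93), the adrenergic receptor gene Adra1a at 1.53 (1.38 to 1.68) and Bmpr1b, a BMP receptor, at 1.58 (1.49 to 1.67). Of 8 channel and junction genes 4 were higher and 0 lower. The connexin gene Gja1 had 1.70 (1.55 to 1.84), whereas the potassium channel gene Kcnj10 had -0.45 (-0.67 to -0.23) and the water channel gene Aqp4 -0.11 (-0.29 to 0.07).

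The structure and maturity genes did not share that direction. Of 9 members 2 were higher (Ndrg2 and Plcd4) and 1 lower (Nes, the progenitor filament nestin, at -1.09), with a median of -0.32. Gfap had 105 CPM in astrocyte nuclei and 79.2 CPM in the others, a log2 ratio of 0.41 (0.22 to 0.59), and was found in 14.9% of astrocyte nuclei. Its direction turned with the choice of nuclei: in the 820 astrocyte nuclei that passed no other gate, a choice that leaves out nuclei with much Gfap, the log2 ratio was -0.90. Of 18 genes of reactive astrocytes only 6 had enough UMIs, of which 0 were higher and 2 lower, Ggta1 at -1.13 and Cp, the copper carrier ceruloplasmin, at -1.40. The inflammatory genes Lcn2, C3, Gbp2, Iigp1, Psmb8, Ptx3 and Steap4 had 0 UMIs among 2977568 UMIs of astrocyte nuclei, which at the floor of 3 UMIs allows up to 1.01 CPM each. They were also rare in the other control nuclei, from 0 UMIs (Steap4) to 19 UMIs (C3, 1.42 CPM), so the zeros are not particular to astrocyte nuclei.

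Of 20 transcription factors 4 were higher and 1 lower. Rorb, a retinoid-related orphan receptor, had a log2 ratio of 1.63 (1.56 to 1.69), Npas3 1.05 (1.03 to 1.07), Gli2, of the hedgehog pathway, 1.05 (0.90 to 1.19) and Emx2 1.02 (0.39 to 1.62). Id3, an inhibitor of basic helix-loop-helix factors, had -1.31 (-1.77 to -0.88). Sox9 and Nfia, factors of the gliogenic switch, had 0.93 and 0.62. Of 12 secreted factors 5 were higher, among them Apoe, the lipid carrier, at 1.79 (1.71 to 1.86) and the protease gene Htra1 at 2.17 (1.96 to 2.39), and 3 were lower, Sparc at -2.62, Thbs1 at -2.94 and Gpc6 at -1.27. Of 10 glutathione and NRF2 genes, Hmox1, the heme oxygenase, was higher at 1.71 (1.40 to 2.01), as was Gsr, the glutathione reductase, at 1.17 (0.95 to 1.38), and 0 were lower. Of 4 regional patterning genes with enough UMIs Emx2 alone was higher.

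Markers of other cell types were mostly low. Of 8 oligodendrocyte precursor markers 6 were lower, at a summed level of 937 CPM against 8637 CPM, with Lhfpl3 the most counted in astrocyte nuclei. Pdgfra, the receptor that marks these precursors, had 21.5 CPM against 283 CPM. The 11 astrocyte nuclei that passed the precursor gate, of which 10 were called doublets, held 9646 CPM of this list, and the 862 nuclei not called doublets held 518 CPM. Of 8 oligodendrocyte markers 7 were lower (183 CPM against 1869.9 CPM summed) and of 7 microglia markers 5 were lower (29.9 CPM against 167 CPM). Of 7 neuron markers 5 were lower (157 CPM against 892 CPM), and of 6 proliferation markers 5 were lower (34.3 CPM against 122 CPM). Each of the 5 radial glia or precursor markers was lower (219 CPM against 858 CPM). The vascular and mesenchymal list summed to 13.1 CPM against 15.8 CPM, with Cldn5, Rgs5, Col1a1, Col1a2 and Dcn at 0 UMIs. The part of the other nuclei's makeup in the ratios of this comparison was not tested.

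**Figure D3:**
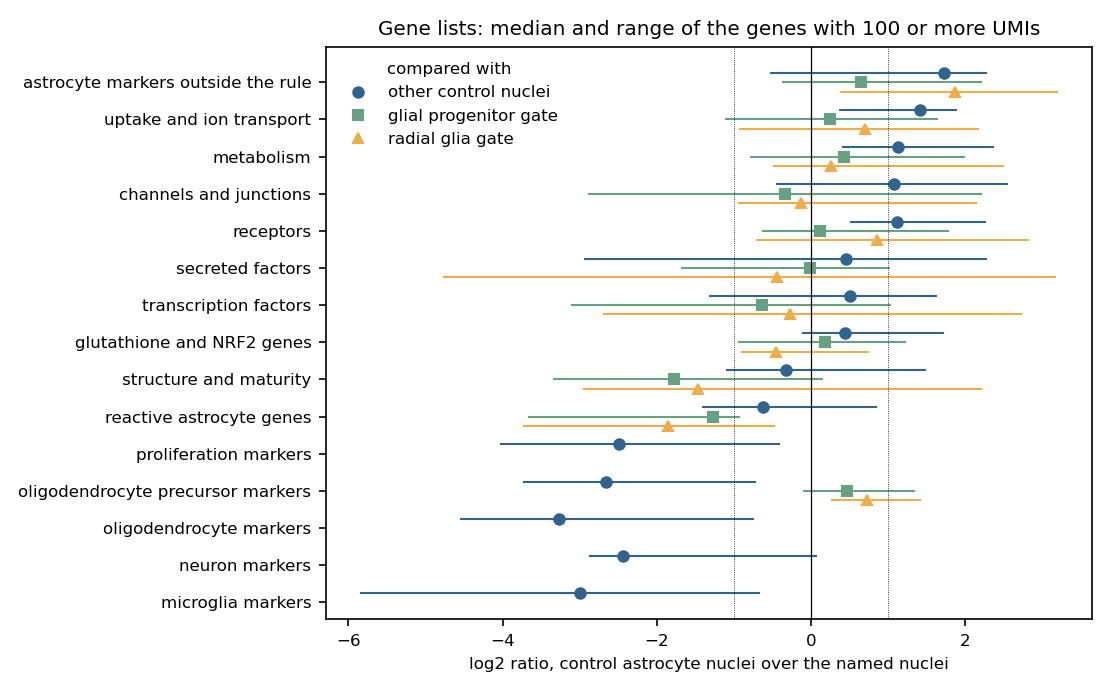
Log2 ratios of the gene lists in control astrocyte nuclei against other control nuclei, glial progenitor gate nuclei and radial glia gate nuclei, with the median over ranked genes of each list. Against other control nuclei the uptake list has a median of 1.41 and the oligodendrocyte precursor list -2.66, and against both progenitor gates the structure list lies below 0, at -1.78 and -1.47.

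Among the control gates with a marker level given above, the 192 nuclei of the glial progenitor gate had the level nearest to that of astrocyte nuclei. Control nuclei just outside the rule lay nearer. Of 5285 genes with enough UMIs, 260 (4.92%) were higher and 327 (6.19%) lower in astrocyte nuclei. Of 11 markers outside the rule 4 were higher and 0 lower. Trpm3 had 879 CPM against 191 CPM, a log2 ratio of 2.20 (1.94 to 2.48), and Grm3 had 1.78 (1.36 to 2.23). The glutamate transporter genes lay short of the call, Slc1a3 at 0.15 (0.04 to 0.26) and Slc1a2 at 0.25 (0.08 to 0.42), and Gja1 was at -0.36 (-0.60 to -0.11). The largest ratio was that of Alpl, an alkaline phosphatase, on 99 UMIs against 1 UMI (4.35, 1.84 to 9.67). Rbfox1, a splicing factor, had 849 CPM against 111 CPM, and Etv4, an ETS transcription factor, 168 CPM against 22.8 CPM.

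Structure, reactive and Id genes stood the other way. Of 6 structure genes 4 were lower, of which Gfap follows from the gate. The others were Vim, vimentin, at -1.39 (-1.74 to -1.04), Ezr, ezrin, at -2.22 (-2.81 to -1.64) and Cd44, the hyaluronan receptor, at -2.17 (-2.75 to -1.59). Of 5 reactive astrocyte genes 4 were lower, with Ggta1 at -3.65 and Cd109 at -2.97. Of 19 transcription factors 4 were lower, the inhibitors of differentiation Id2 (-1.42), Id3 (-3.10) and Id4 (-2.43) and the zinc finger gene Glis3 (-1.43), and 1 was higher, the homeobox gene Dbx2. A2m, alpha-2-macroglobulin, had 66.8 CPM against 977 CPM, and Kcnj10 had 66.2 CPM against 148 CPM. The 51 nuclei that passed both the rule and this gate held 15145 CPM of the 12 markers, against 19453 CPM in those that passed the rule alone.

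Against the 502 nuclei of the radial glia gate, 380 of 6245 genes (6.08%) were higher and 602 (9.64%) lower. Of 11 markers outside the rule 8 were higher and 0 lower, with Ntm at 3.19 (3.13 to 3.25) and Sparcl1 at 3.16 (2.84 to 3.50). Slc1a3, which radial glia also use, was at 0.39 (0.32 to 0.47), while Slc1a2 was at 2.17 (1.98 to 2.36). Dbx2 was at 2.73 (2.30 to 3.18). Genes lower in astrocyte nuclei included Nes (-2.94), Tnc, the matrix protein tenascin C (-2.38), Sparc (-4.76), Col8a1, a collagen (-5.15), Crb2, an apical polarity protein (-4.74), and Cp (-3.72). Id3 was again lower, at -2.68 (-3.17 to -2.21). Of 8 structure genes 4 were lower and 1 higher, Gfap, whose direction follows from the choice of nuclei: the 502 nuclei passed no other gate, so those with 3 or more UMIs of Gfap and Aqp4 were left out.

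**Figure D4:**
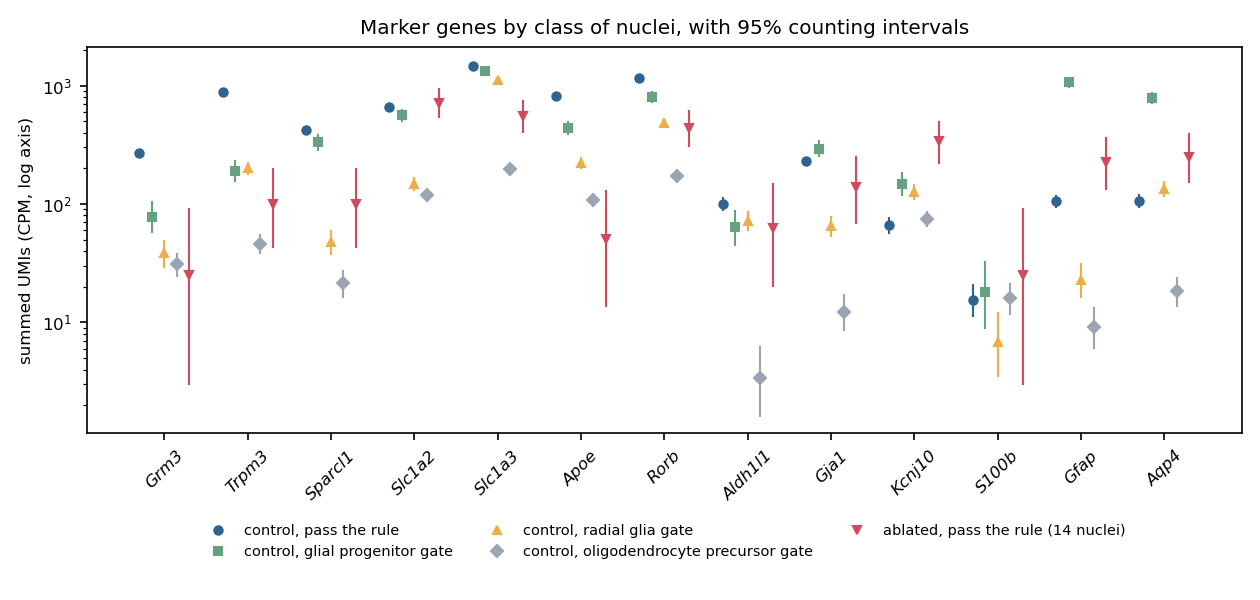
Level of single genes (summed UMIs as CPM, log axis) in control nuclei of several classes and in the 14 ablated nuclei that passed, with 95% counting intervals. Grm3 stands at 269 CPM and Trpm3 at 879 CPM in the control nuclei that passed, above the other classes shown, and Gfap, which helps define the glial progenitor gate, is highest there.

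Astrocyte nuclei of the control library met the rule in different ways. Slc7a11 on its own reached 3 UMIs in 574 nuclei and Slc6a11 on its own in 295, and 107 nuclei passed with no UMI of Slc7a11. The 12 markers summed to 18687 CPM in the first set, 19813.5 CPM in the second and 19744 CPM in the third. The counting intervals of the first 2 sets were 18494 to 18882 and 19539 to 20091 CPM. These sets share nuclei and the intervals leave out the spread between nuclei, so the difference was not tested. Over all splits by rule gene the lowest level was 17767 CPM, in the 258 nuclei with no UMI of Slc6a11. The highest was 21630 CPM, in the 22 nuclei where Atp13a4 on its own reached 3 UMIs. Lower levels went with another gate or a doublet call: 12385 CPM in 25 nuclei that also passed the radial glia gate, 12231 CPM in 11 that also passed the precursor gate and 12336 CPM in the 37 called doublets. With the nuclei split by depth into 4 nearly equal sets, the 3 shallower sets lay between 19872 and 20238 CPM, and the deepest set, which held 36 of the 37 called doublets, at 16480.1 CPM. The part of doublets in that lower level was not tested.

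After thinning to 1500 UMIs per nucleus, 897 astrocyte nuclei remained and 1298 genes were ranked by variance over mean (Fano factor). The median was 1.16 and 56 genes lay above 2. The nuclear RNA Malat1 led with 14.7. Next came Opcml, an adhesion molecule related to neurotrimin (7.64), Lhfpl3 (5.56) and Tnr, a matrix protein of the oligodendrocyte lineage (5.27), which were found in 30.8%, 38.2% and 23.6% of the astrocyte nuclei and in 68.6%, 71.2% and 65.3% of the others. Called doublets were kept in this ranking, and the 37 of them held 6199.8 CPM of the precursor markers. Among the 860 nuclei left without them, the Fano factor was 3.59 for Opcml, 1.72 for Lhfpl3 and 2.21 for Tnr. Grm5, a metabotropic glutamate receptor, had 4.42 and was found in 64.8%. Kcnip4, a potassium channel partner, had 4.35 and was found in 35.9% of astrocyte nuclei against 11.6% of the others. The part of free RNA in these spreads was not tested.

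Xist, the RNA of the inactive X chromosome, and Y-linked genes were unevenly found. After thinning, 36.7% of control astrocyte nuclei held a UMI of Xist (33.5 to 39.9), against 55.8% of the other control nuclei (54.2 to 57.4). A Y-linked UMI was found in 33.4% (30.4 to 36.6) against 20.7% (19.4 to 22.1). In the glial progenitor gate 52.7% held Xist and in the radial glia gate 50.1%. The nuclei were not marked by culture, and the part of single cultures in this difference was not tested.

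Only 4 CBP-ablated and 10 p300-ablated nuclei passed the rule. Their marker level ran from 3592 through a median of 6517 to 6997 CPM in the CBP-ablated library and from 479.6 through 4189.9 to 12155 CPM in the p300-ablated library. Each of the 14 nuclei lay below the lower quartile of the control astrocyte nuclei (15035 CPM). Without Ntm, 4 of 4 and 7 of 10 lay below the lower quartile taken in the same way (5264 CPM). They were deep, with medians of 5380 UMIs (CBP-ablated) and 5741 UMIs (p300-ablated), against 4014 and 3902 UMIs in the nuclei of those libraries that did not pass. Another gate was passed by 3 of the 4 and by 10 of the 10, against 79 of the 899 control nuclei. Most ablated nuclei outside the rule passed a gate too. No gate was passed there by 990 of 3013 CBP-ablated, 1422 of 4638 p300-ablated and 1982 of 3985 control nuclei. The part of doublets and depth in this was not tested.

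Most of these nuclei met the transporter condition through Slc6a11. The 4 CBP-ablated nuclei carried 4, 1, 3 and 4 UMIs of it, beside 0, 2, 1 and 2 UMIs of Slc7a11. In the p300-ablated library 8 of 10 carried Slc6a11 and 3 of 10 Slc7a11. Shroom3, an actin-binding protein of apical constriction used in the radial glia gate, reached 20 and 26 UMIs in 2 CBP-ablated nuclei and 6 to 21 UMIs in the 7 p300-ablated nuclei of that gate. The 4 p300-ablated nuclei of the precursor gate held 3 to 11 UMIs of Pdgfra, and both without Slc6a11 were among them. The 1 nucleus that passed no other gate was CBP-ablated, with 3310 UMIs, of which 2 were Slc7a11, 1 Slc6a11, 5 Gpc5, 5 Slc1a3 and 1 Slc1a2, and 0 were Grm3, Trpm3 or Sparcl1.

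**Figure D5:**
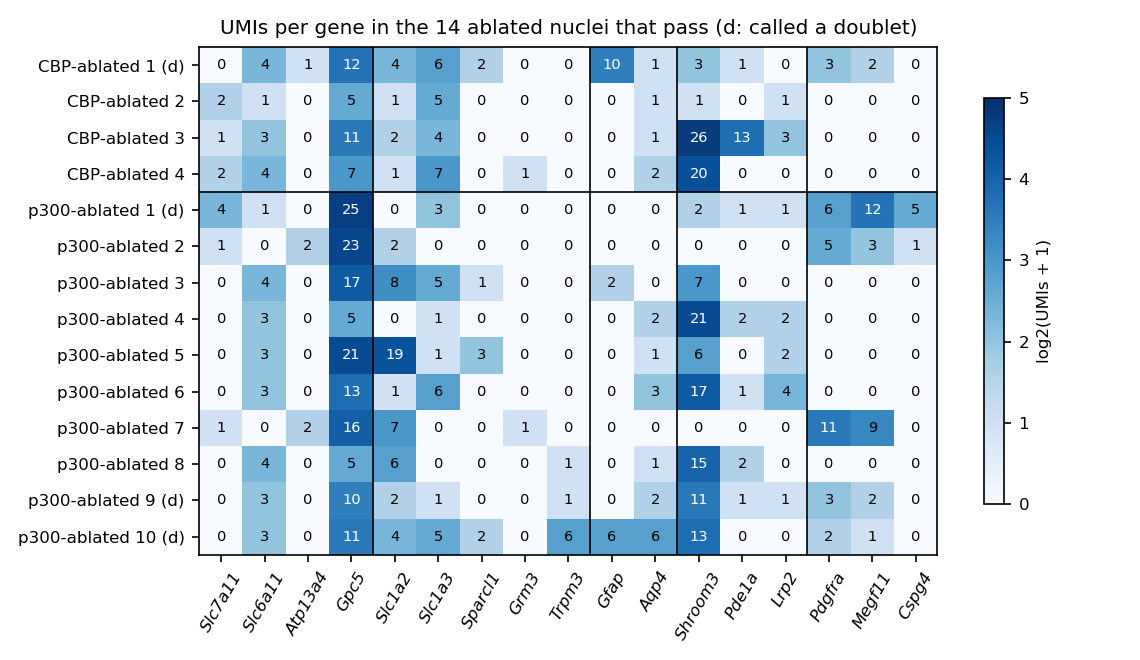
UMIs of single genes in each of the 14 ablated nuclei that passed (4 CBP-ablated and 10 p300-ablated), with colour for the number of UMIs. Slc6a11 is found in 4 of 4 and 8 of 10 nuclei and Slc7a11 in 3 of 4 and 3 of 10, and most nuclei carry much Shroom3 or some Pdgfra.

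Summed over the 14 nuclei and set against the control astrocyte nuclei, 455 of 4649 genes (9.79%) were higher and 777 (16.7%) lower. Calls used the ratio alone, and the nuclei held 21030 UMIs (CBP-ablated) and 58498 UMIs (p300-ablated), against 2977568 UMIs in control astrocyte nuclei. A gene near the count minimum could thus be called on very few UMIs. How far counting error made up these and the later shares of genes for these nuclei was not tested. They are a rough background for the marker counts. Of 11 markers outside the rule 8 were lower and 0 higher, and the summed list had a log2 ratio of -1.90 (-2.05 to -1.76), or -1.43 without Ntm (-1.63 to -1.23). Apoe had 50.3 CPM against 814 CPM, on 4 UMIs, a log2 ratio of -4.02 (-5.89 to -2.66). Trpm3 had -3.13 (-4.34 to -2.15) and Rorb -1.38 (-1.91 to -0.91), while Slc1a2 was at 0.11 (-0.30 to 0.49). Kcnip4 had 1 UMI in the ablated nuclei and 1885 UMIs in control, a log2 ratio of -5.65 (-10.96 to -3.17), and Slc27a1 had 2 UMIs against 1477 UMIs (-4.30, -7.35 to -2.45). Kcnj10 was higher at 2.36 (1.72 to 2.94), as was Aqp4 at 1.24 (0.51 to 1.89). Gfap was at 1.11 (0.33 to 1.79), but 10 and 6 of its 18 UMIs lay in 2 nuclei called doublets. In the 10 ablated nuclei not called doublets it had 2 UMIs, a log2 ratio of -1.37 (-4.43 to 0.49) to the 862 control nuclei not called doublets. Lhfpl3 was higher at 3.16 (3.01 to 3.30), and so were Nuak1, a kinase, at 4.04 (3.50 to 4.57) and the synaptic gene Rims1 at 3.51 (2.84 to 4.13). The precursor list was at 7456 CPM against 937 CPM. Taken by library, it was at 3376 CPM in the 4 CBP-ablated nuclei and 8923 CPM in the 10 p300-ablated nuclei. Without called doublets 494 of 4125 genes were higher (12%) and 749 lower (18.2%), and 7 of 11 markers were lower and 0 higher. Rorb, at -0.98 (-1.57 to -0.45), was then no longer called lower. Slc1a2 was at 0.56 (0.11 to 0.98), but 19 of its 47 UMIs lay in 1 p300-ablated nucleus. Apoe was at -3.70 on 3 UMIs, Trpm3 at -5.37 on 1 UMI, Kcnip4 at -4.94 and Slc27a1 at -3.58. On the other side Kcnj10 was at 2.40, Aqp4 at 1.16, Lhfpl3 at 3.64, Nuak1 at 4.53 and Rims1 at 3.07, and the precursor list was at 5251 CPM against 518 CPM. Microglia markers summed to 25.1 CPM against 29.9 CPM. These sums join both ablated libraries and describe 14 nuclei only. Against the other control nuclei, where 13.5% of 8021 genes were higher and 10.7% lower, the 14 ablated nuclei had 1 of 12 markers higher and 2 lower, at a summed log2 ratio of -0.04 (-0.18 to 0.11).

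Over all nuclei, those that passed included, 10 of the 12 markers were lower and 0 higher in the CBP-ablated library than in control (3.99% and 2.89% of genes), and 7 of 12 were lower and 0 higher in the p300-ablated library (2.12% and 0.694% of genes). Outside the rule, the 12 markers were lower in sum in both ablated libraries than in control, which both comparisons share. They summed to 5169.9 CPM in control, 2131 CPM in CBP-ablated and 3217 CPM in p300-ablated nuclei, log2 ratios of -1.28 (-1.30 to -1.26) and -0.68 (-0.70 to -0.67). Markers of other cell types moved with these sums. Oligodendrocyte markers outside the rule were at 5189 CPM in CBP-ablated, 1603 CPM in p300-ablated and 1869.9 CPM in control nuclei, and the oligodendrocyte gate, passed by 716 of 3017 CBP-ablated nuclei, held 362 CPM of the 12 astrocyte markers there and 754 CPM in control. Oligodendrocyte precursor markers were at 6473 CPM in CBP-ablated, 11146 CPM in p300-ablated and 8637 CPM in control nuclei, and radial glia or precursor markers at 1048, 1199 and 858 CPM. In the precursor gate these 12 markers were at 2194 CPM in CBP-ablated, 3181 CPM in p300-ablated and 3399 CPM in control nuclei, and in the radial glia gate at 2641, 2904 and 4218 CPM. The part of the nuclei's makeup in the ratios outside the rule was not tested. In the CBP-ablated library 9 of 12 were lower and 0 higher, where 2.86% of 11566 genes were lower and 2.15% higher. In the p300-ablated library 4 of 12 were lower and 0 higher, where 1.23% of 11985 genes were lower and 0.417% higher. The 4 were Grm3, Trpm3, Sparcl1 and Apoe. The control side still held near-miss astrocyte nuclei: with only nuclei that had no transporter UMI in each library, the ratios were -0.92 (-0.94 to -0.89) and -0.25 (-0.27 to -0.23). Within the glial progenitor gate they were -0.28 (-0.33 to -0.22) for the CBP-ablated library, where 1 of 9 markers was lower and 0 higher (1.59% and 0.773% of genes), and -0.53 (-0.58 to -0.48) for the p300-ablated library, where 2 of 9 were lower and 0 higher (0.399% and 1.35% of genes), with Trpm3 lower in both. In these sums fewer nuclei of a type and less RNA per nucleus cannot be told apart.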

How the data were processed

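Single-nucleus RNA was measured in 3 libraries, 1 per condition (10x Genomics 3' chemistry). The deposited values are whole UMI counts per gene and nucleus, made by the authors with Cell Ranger 3.1 on GRCm38 with exonic and intronic reads; the submitters' processing notes also name FastQC 0.11.9 and Seurat 2.3.4. The 3 tables listed 30559 genes, and 0 columns belonged to another series. Every nucleus in the files was kept, with at least 500 UMIs in each.

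Nuclei were assigned by the rule and by 5 other gates on raw counts. UMIs were summed per class and library and given as CPM, and log2 ratios carry exact conditional binomial intervals. Shares carry Clopper-Pearson and levels exact Poisson intervals. A count of 0 was taken at a floor of 3 UMIs. Calls used a log2 ratio past 1 and at least 100 UMIs in the 2 sums together. For gene variation each nucleus was thinned to 1500 UMIs. Doublets were called with Scrublet in scanpy 1.11.5 at 0.8% per 1000 nuclei. That fixed rate marked 191 control, 73 CBP-ablated and 173 p300-ablated nuclei, where Scrublet's own threshold marked 140, 105 and 102. Results without called doublets used the fixed rate. Python 3.11.15, numpy 2.4.6, scipy 1.17.1, pandas 2.3.3 and matplotlib 3.10.9 were used, and the ratio script was tested on simulated data.

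The members and gene lists were chosen with earlier results of these data known. Named genes were those of the rule and lists, the 25 largest and 10 smallest ratios against other control nuclei, the 10 largest and 10 smallest in the other profiles, and the 15 largest Fano factors; some of these genes are not reported here. Alternatives changed the rule, depth, doublets, count minimum, scaling and free RNA.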

Additional observations from a re-analysis of the deposited data

Results flagged for a closer look

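Outside the rule, 2 lists moved in opposite directions in the ablated libraries, each set against the same control library. The summed transcription factors had a log2 ratio of -0.44 (-0.45 to -0.43) in CBP-ablated and 0.16 (0.15 to 0.16) in p300-ablated nuclei. The summed reactive astrocyte genes had -0.25 (-0.30 to -0.20) in CBP-ablated and 0.37 (0.32 to 0.41) in p300-ablated nuclei. In the p300-ablated library 2 of 9 ranked reactive genes were called higher and 0 lower, where 0.417% of genes were higher and 1.23% lower. They were Serpina3n (93 UMIs against 27 UMIs in control) and Emp1 (143 UMIs against 37 UMIs), while most of the sum came from Stat3 (281 CPM against 235 CPM) and Cp (232 CPM against 153 CPM), which were not called. In the CBP-ablated library 0 of 7 were called, where 2.15% of genes were higher and 2.86% lower. Oligodendrocyte markers outside the rule also differed between the libraries, at 5189 CPM in CBP-ablated, 1603 CPM in p300-ablated and 1869.9 CPM in control nuclei, and nuclei of the oligodendrocyte gate held little of the transcription factor list, 4041 CPM in CBP-ablated, 5118 CPM in p300-ablated and 4439 CPM in control. Oligodendrocyte precursor markers were at 6473 CPM in CBP-ablated, 11146 CPM in p300-ablated and 8637 CPM in control nuclei, and radial glia or precursor markers at 1048, 1199 and 858 CPM. The radial glia gate was passed by 570 of 3017 CBP-ablated, 978 of 4648 p300-ablated and 655 of 4884 control nuclei. Within the glial progenitor gate the summed transcription factors had a log2 ratio of -0.02 (-0.05 to 0.02) in CBP-ablated and 0.16 (0.13 to 0.19) in p300-ablated nuclei, and the reactive astrocyte genes -0.30 (-0.48 to -0.11) and 0.20 (0.05 to 0.35). In the radial glia gate the transcription factors summed to 21437 CPM in CBP-ablated, 24306 CPM in p300-ablated and 22765 CPM in control nuclei, and the reactive astrocyte genes to 973, 1425 and 1159 CPM. In the precursor gate the transcription factors summed to 9973 CPM in CBP-ablated, 12637 CPM in p300-ablated and 11432 CPM in control nuclei, and the reactive astrocyte genes to 223, 332 and 289 CPM. The part of the nuclei's makeup in these sums was not tested. The difference between the ablated libraries was not tested, since each is 1 library.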

How the results depend on the processing

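A looser rule (transporter sum 2, Gpc5 3) gave shares of 23.3%, 0.530% and 0.581% in control, CBP-ablated and p300-ablated nuclei, a median marker log2 ratio of 1.90, -1.55 for ablated against control nuclei that passed, and -1.09 (CBP-ablated) and -0.48 (p300-ablated) outside the rule. A stricter rule (5 and 10) gave 11.2%, 0.0331% and 0.0215%, then 1.49, -2.32 on 2 ablated nuclei, both called doublets, -1.53 and -0.94, and Gfap turned to -0.17. Without Slc7a11 the shares were 7.92%, 0.0994% and 0.151%. Without Slc6a11 the shares were 12.9%, 0 and 0.0645%, without the Gpc5 condition 20.1%, 0.398% and 0.495%, and after thinning to 1500 UMIs 9.34%, 0 and 0. With at least 20 UMIs per gene 1036 genes were higher and 2326 lower, and with no minimum 2504 and 2666. Outside the rule, centring gave -1.35 and -0.66, 5% free RNA subtracted -1.24 and -0.65, and 10% -1.20 and -0.61, with a marker median of 1.88. The mean CPM of single nuclei gave a marker median of 1.58. Chosen after seeing the data, a comparison with nuclei without a transporter UMI gave a median of 2.27, and -0.92 and -0.25 outside the rule. Likewise, Gfap turned to -0.90 with only nuclei that pass no other gate, and to -1.37 for ablated against control nuclei that passed, without called doublets. The cause was not tested beyond what each setting removes. Of 104 values of shares, sums and counts under the alternatives, 39, given above, moved beyond the counting interval or by over 1.5 times. Of 473 values of single genes of the control profile under the alternatives, 471 kept their direction and 97 moved beyond the original counting interval. Of 220 values of lists, 220 kept their direction and 30 moved beyond it.

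No paired analysis was possible because each condition was 1 library, which also left no replicate to leave out. The counts of ablated nuclei that passed, 4 and 10, limit every statement on them, and 1 library per condition cannot separate condition from culture pool or sort. For depth, the share of nuclei that passed stayed higher in control after each nucleus was thinned to the same number of UMIs. Before thinning, median depth was 3219 UMIs in control, 4016 UMIs in CBP-ablated and 3902.5 UMIs in p300-ablated nuclei. Any further part of depth was not tested.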
